A study of Caenorhabditis elegans with 2 samples.

Results

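Peaks of eGFP-tagged ALY-2 that lie at the 3′ ends of protein-coding genes, away from any coding promoter, numbered 250 of the 1446 peaks in the authors' final list. They were chosen by the position of each peak's summit, which had to fall from 200 bp before to 500 bp past the annotated 3′ end of a coding gene and in no coding promoter window, taken as the 1000 bp before and the 200 bp after a gene's 5′ end. The final list itself was selected on the authors' signal and on how well peaks repeated, so membership rests on measured values. The data came from chromatin immunoprecipitation with sequencing, ChIP-seq, in which DNA that is crosslinked to a tagged protein is recovered and sequenced. A single group was studied, with 2 biological replicates of whole first-stage (L1) larvae of both sexes, age unknown, of the Caenorhabditis elegans strain OP217, which carries unc-119(ed3) on chromosome III and ddIs172, labelled as an insertion that targets aly-2. Both replicates carry the same alleles, and no untagged or other strain was used here. Per the labels the tag is eGFP and the antibody field reads aly-2, and the sources used here do not give the insertion's promoter or genomic site. Whole animals were used, so strong recovery in few cells and weak recovery in many cannot be told apart.

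REF/ALY proteins, the family of ALY-2, are RNA-binding adaptors that hand processed messenger RNA to the nuclear export receptor. The family meets transcripts while they are still being made. In budding yeast its member Yra1 is brought to genes through Pcf11, a factor of 3′ end cleavage. In C. elegans genes are closely packed, and neighbours are often convergent, with their 3′ ends facing each other, or tandem, with the 3′ end of one gene ahead of the 5′ start of the next.

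The 2 strongest 3′ end summits lay just past genes for Hsp70 chaperones, hsp-1 and F44E5.4. That past F44E5.5, another Hsp70 gene, ranked 6 among members, below F19H6.6, cts-1 and ubq-1. The 91 bases around these 3 Hsp70 summits are shown on the ce11 build, read along the strand of the gene, because within each peak this is the stretch where recovery was highest. All 3 stretches begin past the 3′ end and lie outside every annotated exon. They cover chrIV:17281336-17281426 on the + strand for hsp-1, chrII:11757012-11757102 on the − strand for F44E5.4 and chrII:11761870-11761960 on the + strand for F44E5.5. Capitals mark the longest run that F44E5.4 and F44E5.5, related genes in opposite orientation, have in common there, which is 12 bases.

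hsp-1: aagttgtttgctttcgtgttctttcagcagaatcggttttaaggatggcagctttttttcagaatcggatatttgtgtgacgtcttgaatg
F44E5.4: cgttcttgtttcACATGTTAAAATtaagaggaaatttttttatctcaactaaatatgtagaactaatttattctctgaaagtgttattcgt
F44E5.5: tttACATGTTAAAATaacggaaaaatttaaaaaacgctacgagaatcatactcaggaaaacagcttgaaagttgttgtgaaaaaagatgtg

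Summits were concentrated in the first 200 bp past gene ends. Outside promoter windows, the final list held 74.4 summits per Mb from 0 to 100 bp past the nearest coding 3′ end (94 summits, exact Poisson interval 60.1 to 91.0) and 49.9 per Mb in the next 100 bp. The 100 bp before the end held 31.8 per Mb. From 200 bp to 1000 bp before the end, each 100 bp bin held between 1.84 and 5.62 per Mb, and from 500 to 1000 bp past it between 5.48 and 6.14. All intervals in the text are 95% intervals and cover counting error only. The median summit lay 87.5 bp past the end, with quartiles at 29.5 and 180 bp, and 205 of 250 (82.0%) lay past it. The window reaches 500 bp past the end but only 200 bp before it, so this share and median partly reflect the rule. The densities per Mb above allow for the unequal space. The replicates alone, each through its 1446 peaks of highest signal, gave medians of 97.0 and 90.0 bp, or 93.5 ± 4.95 (SD, n = 2). Of the members, 116 lay outside every coding gene and every annotated exon, 73 in a 3′ UTR and 28 in coding sequence. Another 17 lay in another exon, of a coding or a non-coding gene, and 16 in an intron of a coding gene. Some of the 17, such as that at cnnm-3, therefore also lay outside coding genes. A summit past the end of one gene can fall within its neighbour, as at idh-1 below.

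**Figure D1:**
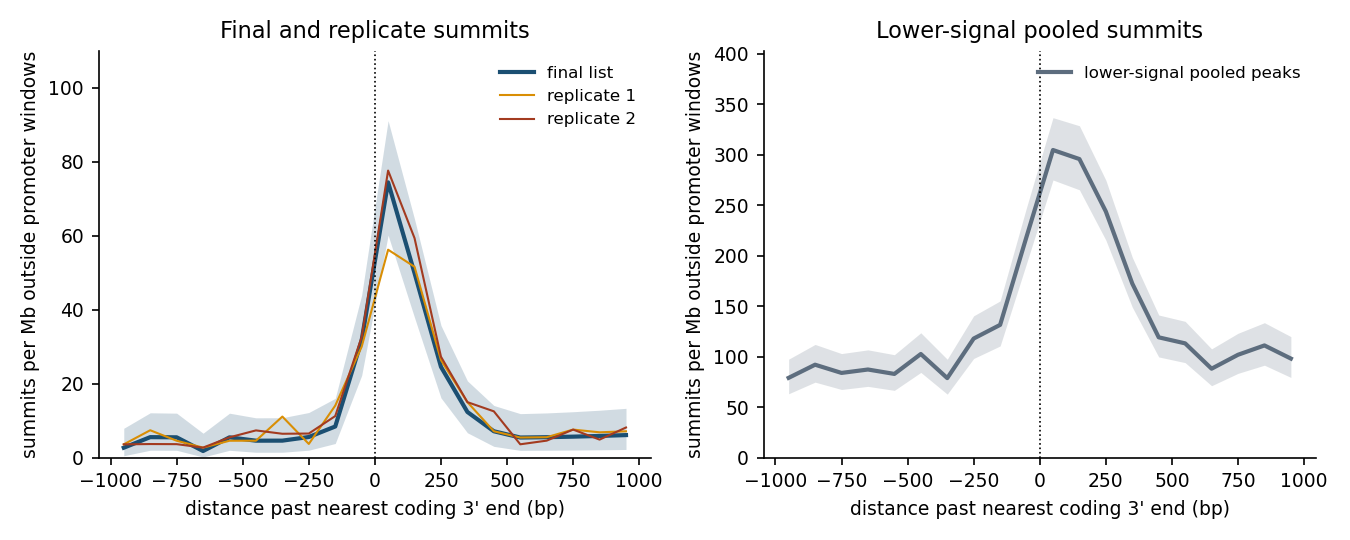
Summits per Mb of sequence outside promoter windows (y axis) by signed distance from the nearest coding 3′ end in 100 bp bins (x axis, bp), for the final list and each replicate's 1446 strongest peaks (left) and for lower-signal pooled peaks (right); shading is the exact Poisson 95% interval of the thick line. The final list peaks at 74.4 per Mb in the first 100 bp past the end, and lower-signal peaks at 305.

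Lower-signal peaks also gathered just past gene ends, but stood less far above their surroundings. The 14229 pooled peaks outside the final list held 1755 summits (12.3%) that met the same position rule, against 17.3% of final summits (exact binomial interval 15.4 to 19.3). The replicates gave 18.0% ± 2.05 (SD, n = 2). In lower-signal peaks the first 100 bp past the end held 305 summits per Mb, and the bins from 200 to 1000 bp before the end 78.9 to 118 per Mb. Their median position was 130 bp past the end. The 3′ windows outside promoters made up 8.25% of the nuclear genome. There the final list held 30.2 summits per Mb, against 38.0 in promoter windows and 5.38 elsewhere. The median signal of members was 60.95, against 60.03 for final peaks in promoter windows and 54.1 for those elsewhere. Signals are the authors' own, their scale is unstated, and they describe peaks within 1 list only.

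Every member overlapped a peak in both replicate lists, and 163 of 250 (65.2%) were among the 1446 strongest of each. The replicate lists held 26798 and 25463 peaks and the final list was selected for repeatability, so the overlap was largely built in. Neither value is set beside that of all final peaks, so they show nothing particular to members. The median rank of members was 700 in replicate 1 and 588.5 in replicate 2. The lowest-ranked member stood at 6164 in replicate 1 and 12240 in replicate 2. The weakest members were at bed-2 and let-19, with signals of 43.3 and 42.8. The first pooled peaks at a 3′ end below the authors' threshold were at rei-1 and dmd-6, with 42.5 and 42.3.

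Hsp70 genes held 4 of the 7 strongest members. Hsp70 proteins are chaperones that bind unfolded stretches of other proteins. The summit at hsp-1, which encodes the constitutive cytosolic Hsp70, lay 51 bp past the end on chromosome IV (peak 17281226 to 17281523) and had a signal of 328, with 156 in replicate 1 and 186 in replicate 2, rank 4 in each. It also lay 74 bp past the end of its convergent neighbour nra-1, 124 bp away, so the position does not tell which gene it belongs to. The summit at F44E5.4, a gene of the heat-inducible Hsp70 group, lay 50 bp past the end, with a signal of 324. Its replicate signals were 93.9 and 225, at ranks 30 and 2. F44E5.5, of the same group, had its summit 54 bp past the end with a signal of 204 (83.6 and 127 in the replicates). The nearest downstream coding genes lay 8495 and 4910 bp away from these 2 genes. Since the pair has similar sequences, the share of reads of each is uncertain. Within the 101 bp around the summits the longest identical run was 12 bases. Both peaks reach beyond that stretch into the genes themselves, so this run cannot settle the share of reads. The summit at hsp-3, which encodes an Hsp70 of the endoplasmic reticulum, lay 3 bp before the end (signal 198, with 102 and 95.4). The genes hsp-1, F44E5.4 and F44E5.5 also carried a final summit in their own promoter window, and hsp-3 did not. F44E5.4 and F44E5.5 start close together and run in opposite directions, so their promoter windows overlap and 1 summit can count for both.

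Actin genes formed a second run among the strongest members. The genes act-1, act-2 and act-3 lie together on chromosome V and encode actins, the subunits of thin filaments. Their summits lay 169, 183 and 37 bp past the ends, with signals of 164, 156 and 154. The replicate signals were 83.3 and 79.6 for act-1, 69.7 and 89.04 for act-2, and 78.6 and 79.9 for act-3. In order, these 3 peaks ranked 46, 84 and 58 in replicate 1 and 63, 38 and 62 in replicate 2, so all stood among the 100 strongest of each. The runs shared by any pair of these 3 summit windows of 101 bp were at most 7 bases, whereas the proteins they encode are near-identical. The piRNA gene 21ur-13032 lies within 200 bp of the act-3 summit. Another actin gene, act-4 on X, had a weaker summit 40 bp before its end (signal 52.3, with 26.3 and 23.3). None of the 4 genes had a final summit in its promoter window. Such a summit stood at 5.58% of all coding genes and 20.5% of member genes, so 4 genes are too few to set actins apart.

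**Figure D2:**
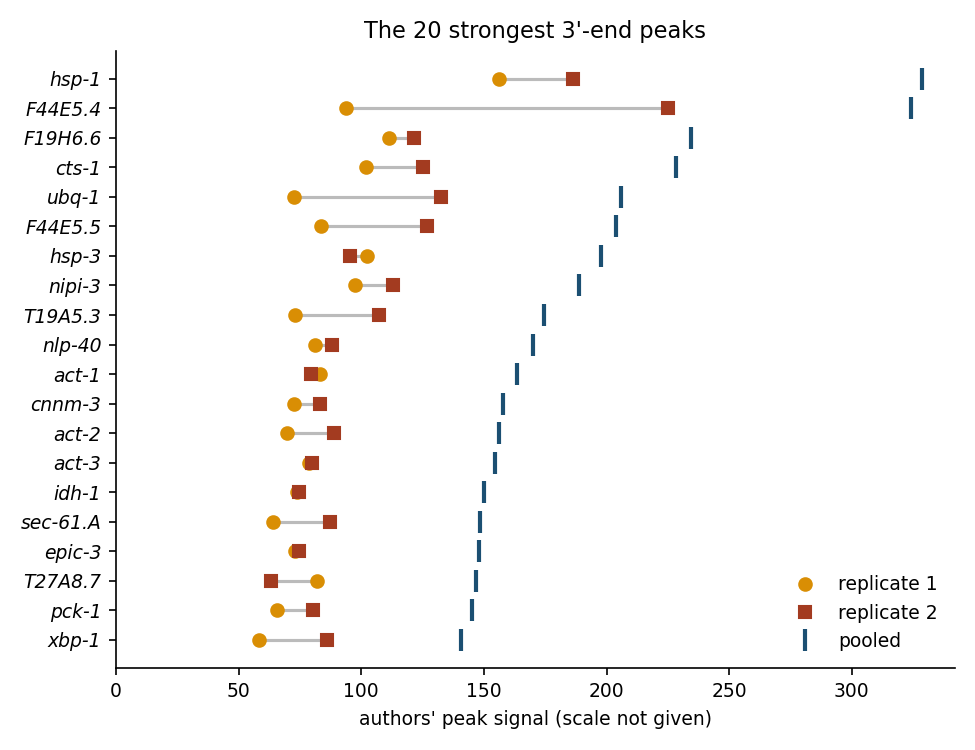
Authors' peak signal (x axis, scale not given) at the 20 strongest members, named by the gene of the nearest 3′ end (y axis); circles are replicate 1, squares replicate 2 and bars the pooled peak. The pooled signals run from 328 at hsp-1 to 140.4 at xbp-1; signals of different lists share no stated scale.

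The rest of the 20 strongest included 3 genes of central carbon metabolism, cts-1, idh-1 and pck-1, and the ubiquitin gene ubq-1. The summit at cts-1, the gene for citrate synthase of the citric acid cycle, lay 3 bp before its end and 56 bp before that of best-18, which overlaps it by 60 bp (signal 228, with 102 and 125). At ubq-1, which encodes polyubiquitin, the summit lay 15 bp past the end, where F25B5.5 overlaps by 9 bp, with a signal of 206 (72.7 and 133). The summit at idh-1, an isocitrate dehydrogenase gene, lay 63 bp past its end inside the coding sequence of F59B8.1 (signal 149.9, with 73.9 and 74.6). That at pck-1, a phosphoenolpyruvate carboxykinase gene, lay 230 bp past the end (signal 145, with 65.8 and 80.2). The pseudokinase gene nipi-3 had a summit 182 bp past the end (signal 189, with 97.6 and 113). The summit of xbp-1, a transcription factor of the unfolded protein response, lay 57 bp past the end (signal 140.4, with 58.5 and 86.04). That of sec-61.A, a gene for the translocation channel of the endoplasmic reticulum, lay 84 bp past it (signal 148, with 64.03 and 87.4).

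The other strong members were F19H6.6 on X (signal 234), T19A5.3 with unc-23, a BAG-family co-chaperone gene (174), the neuropeptide gene nlp-40 with rcor-1 (170), cnnm-3 (158), epic-3 with epic-2 (148) and T27A8.7 (147). The cnnm-3 summit lay 323 bp past the end, within 200 bp of the tRNA genes WBGene00023110 and WBGene00023111. A tRNA, snoRNA, snRNA, miRNA or piRNA gene lay within 200 bp of 26 of 250 members (10.4%) and of 139 of 1196 other final summits (11.6%), so members did not stand above the rest. snoRNA genes accounted for 14 of the 26, or 5.6% of members, against 54 of the 1196 other final summits (4.52%). Of the 20 strongest members, 11 lay at convergent and 9 at tandem ends.

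Members fell in the 3′ windows of 342 genes, or 1.99% of the 17203 coding genes whose window held any sequence outside promoters. Of the 250 summits, 97 lay in the windows of 2 genes. Each such summit counts for both genes below, unless stated.

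Convergent 3′ ends held more summits per base than tandem ones, and the excess was seen in the classes with a close neighbour. The rule leaves tandem genes less room, because the 1000 bp ahead of the next gene are barred. The median window held 701 eligible bases at convergent and 216 at tandem ends, so summits were counted per eligible Mb. By the nearest end, 156 members were at convergent ends (62.4%, exact interval 56.1 to 68.4), 90 at tandem ends and 4 at genes nested in others. Convergent ends held 43.8 summits per Mb (exact Poisson interval 38.5 to 49.5) and tandem ends 25.8 (20.8 to 31.7), a ratio of 1.70. Summits in 2 facing windows enter the convergent count for both genes, so its interval is too narrow. The same holds for the close convergent pairs below. The replicates gave ratios of 1.62 and 1.52, or 1.57 ± 0.0660 (SD, n = 2). No test was made, since regions are not replicates. Giving each summit and base to the nearest end alone brought the densities to 35.1 (29.8 to 41.1) and 26.02 (20.9 to 31.98), whose intervals overlap, a ratio of 1.35. In the upper 50% of final peaks by signal the ratio was 1.26, and among lower-signal peaks 1.25.

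The distance to the neighbour separated convergent ends further, by distance classes that were set after the data were seen. Overlapping convergent genes held 53.1 summits per Mb (43.8 to 63.8), those less than 200 bp apart 49.7 and those from 200 to less than 1000 bp apart 45.5. At 1000 bp or more the density was 21.5 (14.2 to 31.3). Tandem genes held 27.6 at gaps from 1000 to less than 2000 bp and 27.4 (20.6 to 35.8) at 2000 bp or more, and the interval of distant convergent ends overlaps these. Overlapping convergent genes also showed the widest spread, with 41.9 in replicate 1 and 60.1 in replicate 2. At close convergent pairs 1 window can hold the summits of both ends, so density per window and density per 3′ end cannot be told apart there. Convergent members lay at a median of 73 bp past the end, tandem members at 104 bp.

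**Figure D3:**
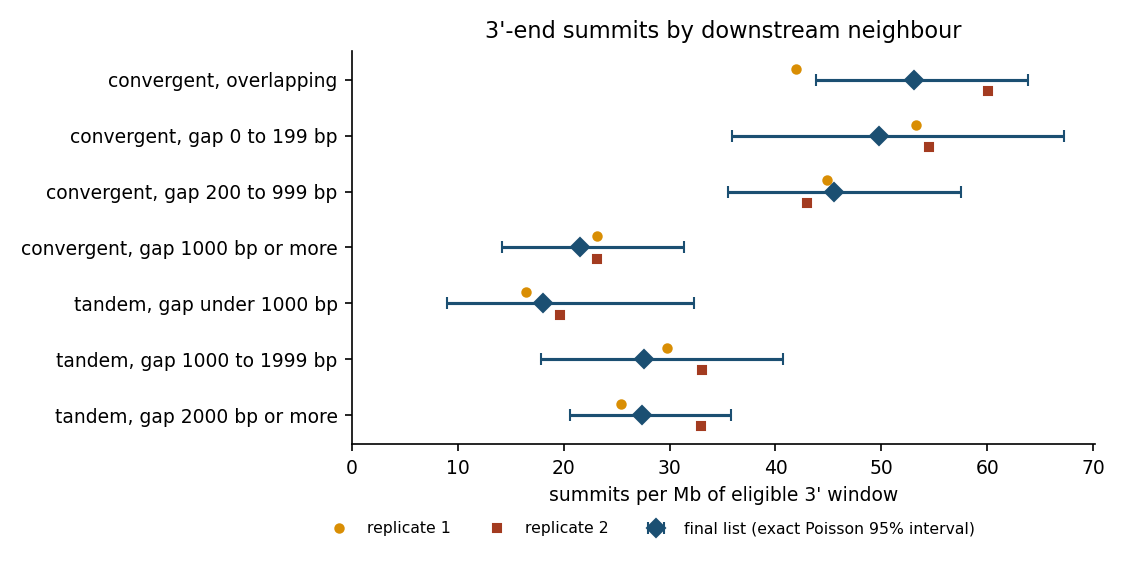
Summits per Mb of eligible 3′ window (x axis) by the orientation and distance of the downstream coding neighbour (y axis); diamonds are the final list with exact Poisson 95% intervals, circles replicate 1 and squares replicate 2. Convergent ends with a neighbour within 1000 bp sit between 45.5 and 53.1, the other classes between 18.0 and 27.6. Summits in 2 facing windows count for both genes, so the intervals of the close convergent classes are too narrow.

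Longer genes carried 3′ summits more often. The median length of member genes was 2696 bp, with quartiles at 1550 and 5336 bp, against 2067 bp for other coding genes with eligible bases. The replicates gave 2769 ± 96.2 bp (SD, n = 2). In order of length quartile, 1.32%, 1.79%, 2.07% and 2.77% of genes had a final summit at the 3′ end. The shortest quartile (30 to 1230 bp) had an exact interval of 1.00 to 1.71 and the longest (3772 to 87197 bp) one of 2.30 to 3.30. Each replicate ranked the quartiles in the same order. The gradient was also present, and steeper, in lower-signal peaks, from 7.52% to 19.9%. The promoter windows of the same genes gave 5.64%, 4.31%, 5.21% and 7.04%. Among the upper 50% of final peaks by signal, the median length of member genes was 2382 bp.

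**Figure D4:**
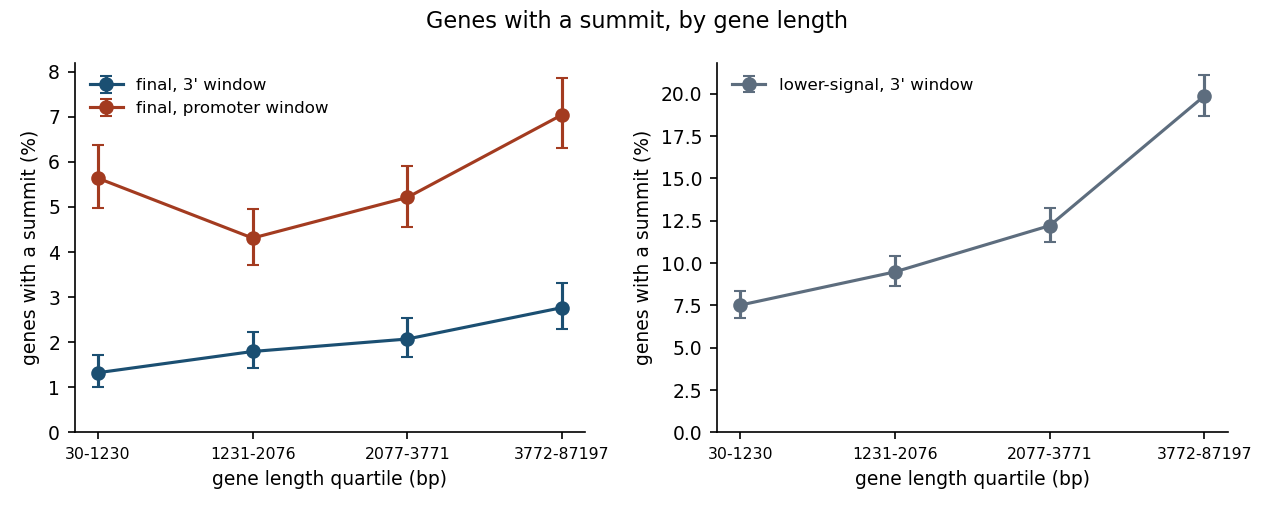
Percent of coding genes with a summit (y axis) by quartile of gene length (x axis, bp); left, final summits in the 3′ window and in the promoter window, right, lower-signal summits in the 3′ window, with exact 95% intervals. Final 3′ summits go from 1.32% in the shortest to 2.77% in the longest quartile.

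Some member genes also carried a final peak at their other end. A final summit stood in the own promoter window of 70 of the 342 (20.5%, exact interval 16.3 to 25.1), against 5.25% of the other genes with eligible bases and 5.58% of all coding genes. The replicates gave 17.2% ± 2.63 (SD, n = 2). The share was 30.0% (27 of 90) for members with a tandem and 17.3% (43 of 248) for those with a convergent neighbour. Among all genes of these classes with eligible bases it was 6.63% for tandem and 4.75% for convergent. With both ends taken from the upper 50% of final peaks by signal, the share over member genes was 12.7%. Fewer promoter peaks enter there too, so the shares of other genes above are not its background, and no matching share is given. The gene cdc-48.1, picked out after its values were seen, had a summit 44 bp before its 3′ end with a signal of 66.7 (30.3 and 39.5), besides its promoter peak.

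Genes for protein synthesis, folding, turnover and energy supply were frequent among members. These 7 lists together accounted for 46 of the 342 genes, or 13.5%, and the replicates gave 13.5% ± 0.369 (SD, n = 2). The 3′ ends of 13.03% of their 353 genes with eligible bases held one (exact interval 9.70 to 16.997), against the 1.99% of all coding genes. In promoter windows 137 of all 418 genes of these lists had a final summit (32.8%), against 5.58% of all coding genes. A share above that of all coding genes was thus not particular to 3′ ends. The lists and their members were chosen with results of these data known, so these shares are descriptions. The shares at 3′ ends and at promoters followed different orders across the lists. Promoter windows are longer than the eligible 3′ windows, and the shares below are not scaled to that space. Over all coding genes too, promoter summits were more frequent than 3′ summits (5.58% against 1.99%).

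Central carbon metabolism genes were well represented at 3′ ends. Of the 37 with eligible bases, 10 had a 3′ summit (27.03%, exact interval 13.8 to 44.1). In promoters 7 of all 48 had one (14.6%), a share inside that interval, and the difference was not tested. Replicate 1 gave 9 and replicate 2 gave 11. Besides cts-1, idh-1 and pck-1, the strongest was mdh-2, a malate dehydrogenase gene, with a summit 201 bp past the end (signal 118, with 50.5 and 68.4). Of these 10 genes, 4 carried summits at both ends.

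Chaperone genes had 14 of 65 (21.5%, exact interval 12.3 to 33.5), with 13 in each replicate, led by hsp-1, F44E5.4, F44E5.5 and hsp-3. In promoters 25 of all 78 had a summit (32.1%), also inside the interval. The other members here were named after their values were seen. They were pdi-2 and pdi-6, which encode protein disulfide isomerases, crt-1 for calreticulin and enpl-1 for the Hsp90 of the endoplasmic reticulum. The rest were cct-7, cct-4, cct-1, cdc-48.1, dnj-29 and dnj-5, and cct-7 had a higher signal (92.5) than crt-1, pdi-6 and enpl-1. Vacuolar ATPase genes, which encode a proton pump of acidic organelles, had 5 of 18 at 3′ ends (27.8%) and 5 of all 21 in promoters (23.8%), led at 3′ ends by vha-12, vha-8, vha-14 and vha-2. The vha-12 summit lay 3 bp before the end (signal 91.7, with 34.9 and 58.8) and that of vha-8 18 bp before it (79.1, with 28.1 and 48.5). Replicates 1 and 2 gave 4 and 7 of these 18 genes. Cytoskeleton genes had 5 of 28 at 3′ ends (17.9%) and 3 of all 30 in promoters (10%), the 5 being the 4 actin genes and the tubulin gene tbb-2, whose summit lay nearer to the end of C36E8.4. The tbb-2 peak had a signal of 109, with 32.3 in replicate 1 and 74.8 in replicate 2.

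Ribosomal protein genes carried most of their summits in promoters. At the 3′ end, 5 of 75 (6.67%, exact interval 2.20 to 14.9) had a summit, while 51 of 82 (62.2%) had one in the promoter. These and the paired counts below are over windows of unequal length, the promoter window being the longer. Those 5 were rpl-4, rpl-3, rps-13, rps-7 and rpl-11.1, and at rpl-4 and rpl-11.1 the end of the convergent neighbour was nearer to the summit. The highest signal among them was 87.5 at rpl-4. Genes of the respiratory chain and ATP synthase held 3′ summits in 3 of 65 cases, namely atp-1, nuo-4 and cox-5B, and 21 of 71 in the promoter. RNA processing and export genes had 4 of 60 and 21 of 63. The 4 were prp-8, a core component of the spliceosome, lsm-3, prp-3 and thoc-2, and the thoc-2 summit lay nearer to rps-13. Translation factor genes had 4 of 36 and 15 of 42, with eef-1A.2 and eef-1A.1, genes for elongation factor 1 alpha, first (signals 135 and 118, 70 and 58 bp past the ends), then eef-2 and eif-2A. The proteasome and ubiquitin list had 5 of 57 and 13 of 76, with ubc-25, rpn-6.1 and rpn-5 after ubq-1. The rpn-5 summit lay nearer to the end of F10G7.5.

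Cuticle collagen genes, which encode the structural proteins of the worm's outer layer, had 3′ summits in 11 of 151 cases (7.28%, exact interval 3.69 to 12.7) and promoter summits in 3 of 174 (1.72%). None of the 11 had a promoter summit. The count was 12 in each replicate. The strongest were col-117, 106 bp past its end but nearer to that of T28C6.5 (signal 125, with 52.7 and 72.3), col-128, 98 bp past it (105.2, with 55.4 and 48.8), col-3, 89 bp past it (104.8, with 49.6 and 57.1), and col-147, whose summit lay nearer to T06E4.5. Collagen genes are short, with a median of 1220 bp in this list, below the 2027 bp of all coding genes.

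The other lists held 0 to 3 member genes each. Chemoreceptor genes had 3 of 1047 (0.287%, exact interval 0.0591 to 0.835), below the 1.99% of all coding genes, namely srxa-8, str-56 and str-208, the last pair nearer to the ends of nhr-102 and tam-1. Nuclear hormone receptor genes had 1 of 222, nhr-102 (0.450%, 0.0114 to 2.48). C-type lectin genes had 2 of 202 (0.990%, 0.120 to 3.53), clec-180 and clec-78, both nearer to a convergent neighbour. Fatty acid metabolism genes had 2 of 80 (2.50%, 0.304 to 8.74), ech-1.2 and acdh-3. The intervals of these 3 lists include 1.99%. No final 3′ summit was seen for 252 F-box genes, which allows a share of up to 1.19%, for 72 chromatin genes, mostly histones (up to 4.17%), for 24 muscle genes (up to 12.5%), or for 28 genes of transcription elongation, termination and polymerase subunits (up to 10.7%), of which 7 of 31 had a promoter summit. Of these limits, the one for F-box genes lies below 1.99%, and the others do not. Replicate 1 alone held 1 muscle gene, and each replicate alone 1 gene of the transcription list.

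**Figure D5:**
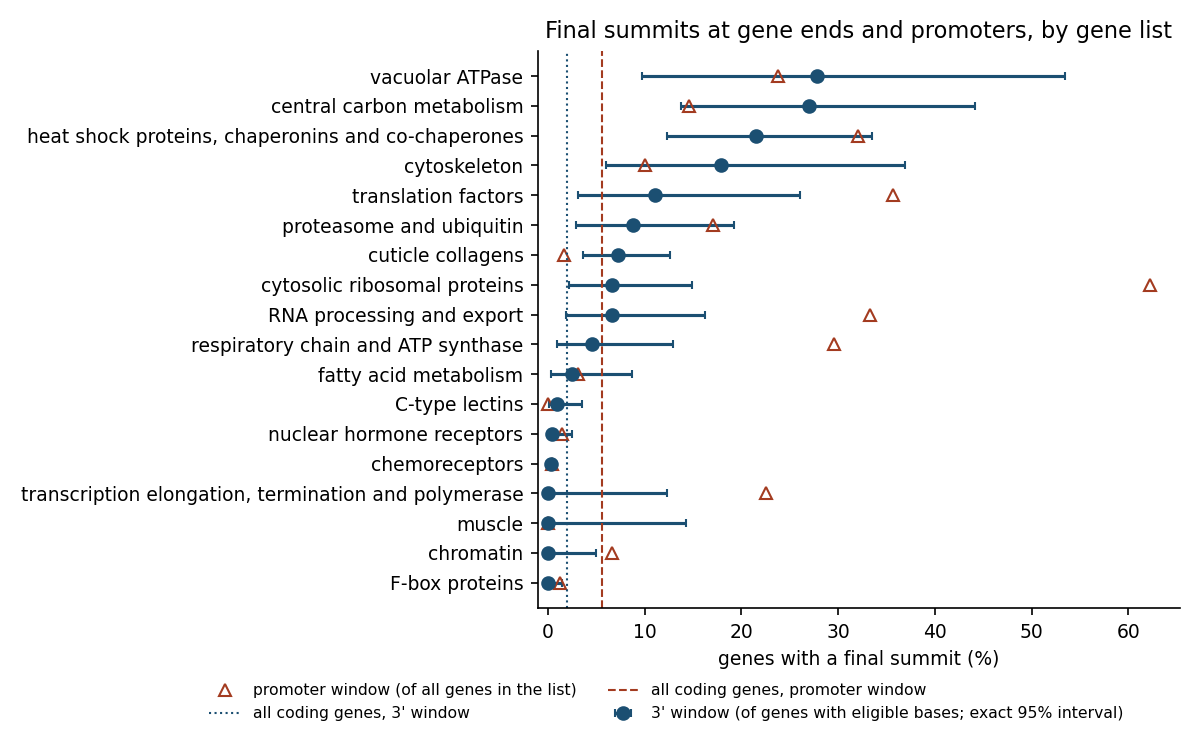
Percent of genes in each list with a final summit (x axis), in the 3′ window (circles, exact 95% intervals) and in the promoter window (open triangles); vertical lines mark all coding genes, 1.99% and 5.58%. Central carbon metabolism reaches 27.03% at 3′ ends, and cytosolic ribosomal proteins 6.67% at 3′ ends against 62.2% in promoters. Promoter windows are longer than the eligible 3′ windows, and the shares are not scaled to that.

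Members were spread over all 6 nuclear chromosomes. Chromosome III held 55, or 51.9 per Mb of eligible 3′ sequence, the highest density, and V held 40, or 20.2 per Mb, the lowest. On X, 33 of 145 final summits were members (22.8%), and on the other chromosomes 14.7 to 18.1% were.

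Base composition and the cleavage signal at members were close to those of 3′ ends in general. GC content in 201 bp around members averaged 35.4% ± 6.63 (SD over 250 summits), against 34.6% for all eligible bases, 33.6% for lower-signal 3′ summits and 39.5% for final summits in promoters. The hexamer AATAAA, which directs cleavage and polyadenylation, stood in the last 40 bases of 46.2% of member genes and of 47.1% of all coding genes with eligible bases.

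A small number of members held a word that was more frequent at promoter summits. All words of 6 bases, each with its reverse complement, were counted in 101 bp around summits, and of those in at least 15 members the pair with the highest ratio to windows of equal length centred 88 bp past coding 3′ ends was ACGCAG, in 6.40% of members against 1.70% of those windows, and CGTCTC, in 8% against 2.58%. They overlap in GAGACGCAG (reverse complement CTGCGTCTC). Found on either strand, this longer word stood at 6 of 250 members (2.40%, exact interval 0.886 to 5.15), at 56 of 817 final promoter summits (6.85%), at 0.399% of lower-signal 3′ summits and in 0.240% of the 13352 windows. The word was assembled after the counts were seen, so no test was made. The 28 members with either short word lay at a median of 187 bp past the end, against 81 bp for the other 222. The 6 with the long word, at nlp-40, F25E2.2, mdh-2, ipgm-1, nuo-4 and epc-1, lay 161 to 485 bp past it.

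Of these 6, the stretches at F25E2.2, mdh-2 and nuo-4 that lie past the gene and outside annotated exons are shown because they carry the long word. They cover chrX:806624-806724, chrIII:6606293-6606393 and chrIII:7155763-7155863 on the − strand of ce11, with the word in capitals. A match is only a description of these letters.

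F25E2.2: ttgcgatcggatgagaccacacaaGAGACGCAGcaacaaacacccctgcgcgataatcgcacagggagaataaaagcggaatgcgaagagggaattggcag
mdh-2: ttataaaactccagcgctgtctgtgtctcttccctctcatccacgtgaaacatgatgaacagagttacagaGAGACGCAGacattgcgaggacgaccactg
nuo-4: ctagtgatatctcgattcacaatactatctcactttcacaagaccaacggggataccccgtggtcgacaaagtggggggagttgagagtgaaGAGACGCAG

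Peaks of other tagged proteins were not analysed here, so it was not tested whether these 3′ ends are particular to ALY-2.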

How the data were processed

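Per the labels and the deposited description files, the authors called peaks on ce11 in each replicate and in both together, each against a control, and derived a final list thresholded on the irreproducible discovery rate, a measure of repeatability between ranked lists. Each peak carries the authors' signal, from their peak caller, on a scale that is not given. No source used here gives the aligner, caller, threshold or read depth. The final list equals the 1446 pooled peaks of highest signal, and 1419 final peaks are 360 bp wide.

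Lists were joined with Ensembl release 115 genes (19973 protein-coding) in Python 3.11.15 with pandas 2.3.3, numpy 2.4.6 and scipy 1.17.1. Sequence came from the RefSeq WBcel235 assembly, whose chromosome names match ce11. Distances run in the direction of transcription. The downstream neighbour is the coding gene whose near edge comes first past the 5′ end and which reaches beyond the 3′ end. Replicate overlaps needed 1 bp. Intervals are exact (Clopper-Pearson or Poisson) and treat counts as independent, which summits counted for 2 genes are not. Where a list had 0 genes, the limit is 3 counts out of its genes. No hypothesis test was made: both replicates form 1 group, and regions are not replicates. Named genes are those of the nearest 3′ end at the 20 strongest members, up to 4 of each list by signal, and the members next to the signal threshold. The other chaperone list members were named after their values were seen. The classification was checked on planted summits. The members and lists were chosen with earlier results of these data known.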

Additional observations from a re-analysis of the deposited data

How the results depend on the processing

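No paired analysis was possible because both replicates belong to 1 group. Each of the 9 results was recomputed from each replicate's list alone and with the upper 50% of final peaks by signal. Other settings were a 500 bp promoter window, a 3′ window ending 250 bp past the end, and peak centres. Peak centres moved no result beyond 1 SD of the replicates. Nearly all members are 360 bp wide with the summit at the middle, so that setting could change little. The exceptions include strong members with narrower peaks, such as hsp-1, F44E5.4, cts-1 and act-3. At act-3 the summit lies near the edge of its peak. Leaving out a replicate gave 239 to 281 members, 16.5 to 19.4% of summits, a median position of 90.0 to 97.0 bp, 40.3 to 46.7 summits per Mb at convergent and 24.95 to 30.7 at tandem ends, ratios of 1.52 to 1.62, a median length of 2701 to 2837 bp, 13.2 to 13.75% of genes in the 7 lists and 15.3 to 19.1% with a promoter summit. The upper 50% gave 141 members (19.5%), 21.97 and 17.5 summits per Mb (ratio 1.26), a length of 2382 bp, 17.99% in the lists and 12.7% with a promoter summit. The 500 bp promoter window gave 20.2% of summits, a ratio of 1.62, 14.1% in the lists and 16.2% with a promoter summit. The 250 bp window gave 14.9% of summits, a position of 72 bp, 58.7 and 33.7 summits per Mb, 2539 bp and 14.9% in the lists. Nearest ends alone gave 35.1 per Mb at convergent ends, a ratio of 1.35, and, added after seeing the data, 16.8% in the lists and 23.2% with a promoter summit. With whole windows eligible, also added then, the ratio was 1.61. Summed exon length had a median of 1717 bp. Where values moved, the cause was not tested. Depth is unknown, so no interval on a single peak's signal was possible.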
